A study of Mus musculus with 12 samples.

Results

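The 60 genes described here encode the machinery of mitosis: centromere and kinetochore proteins, the spindle assembly checkpoint, mitotic kinesins, mitotic kinases, the cyclins of G2 and M phase with Cdk1, 3 cell cycle transcription factors, spindle and cytokinesis proteins, and chromosome structure proteins. They were taken from the table by symbol. All 60 were found among the 55357 genes of the count table, all 60 held counts, and all 60 were among the 17358 genes that passed the filter on low counts. Liver RNA of 12 male C57BL/6J mice was measured by poly-A RNA-seq in 4 groups. The WT mice (PPARa fl/fl AlbuminCre +/+) carried floxed Ppara alleles without the transgene, and the KO mice (PPARa fl/fl AlbuminCre Tg/+) carried the same alleles with a Cre recombinase that the albumin promoter drives in hepatocytes, so cells in which it is not active keep Ppara. From 7 weeks of age the mice received chow or a high-fat diet of defined amino acids without choline (CDAHFD) for 6 weeks, and livers were taken at 13 weeks. There were 4 WT chow, 2 KO chow, 3 WT CDAHFD and 3 KO CDAHFD libraries, with 29906785 to 43551003 counts each.

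A cell that enters mitosis condenses its chromosomes, builds kinetochores on its centromeres, attaches them to a bipolar spindle, and separates its chromosomes once the checkpoint is satisfied. Cdk1 with cyclin A or B drives entry, and the anaphase-promoting complex (APC/C) destroys the cyclins to allow exit. Transcripts of these genes accumulate in G2 and M phase. In quiescent cells the DREAM complex holds them off, and in cycling cells the same MuvB core, now with B-Myb and later FoxM1, turns them on. Most hepatocytes of a healthy adult liver do not cycle, and their mitotic transcripts are scarce.

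MuvB binds the cell cycle genes homology region (CHR), and NF-Y binds CCAAT boxes that often lie upstream of it, so the promoters of the members were searched for both. RefSeq promoter windows (GRCm38.p6, 250 bases before to 50 after the start) were found for 50 of the 60 members, as 54 windows. Either of the CHR letters TTTGAA and TTCGAA, on either strand, occurred in 38 of the 54 windows (70.4%), against 19.2% of all 32851 windows and 14.5% of the windows of genes tested. CCAAT, on either strand, occurred in 40 of the 54 (74.1%), against 37.4% of all windows. Both kinds of letters occurred together in 33 of the 54 (61.1%), against 7.53% of all windows and 5.79% of those of genes tested. A CCAAT and a TTTGAA on opposite strands can share 1 base. The 51 CHR matches had a median position of -15 from the start, and the 84 CCAAT matches one of -67. The windows of Ect2 overlap each other, as do those of Prc1, so their matches are counted more than once. These matches describe letters in a window and are no evidence of binding. The 31 members with both had a median log2 fold change of 4.39 in KO chow against WT chow (range 1.69 to 6.07), and the 19 members without both one of 3.66 (range 0.77 to 6.24), so the ranges overlapped widely.

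The 150 bases before the start are shown for 7 members, 5′ to 3′ on the strand of the gene, with the searched letters in capitals (TTTGAA or TTCGAA, or TTCAAA on the other strand; CCAAT, or ATTGG on the other strand). Cdk1, Cdc20, Top2a, Kif11 and Ube2c hold both kinds of letters in this stretch. Ccnb1, the cyclin B1 gene, holds CCAAT but neither CHR spelling, and Mybl2, the member with the smallest change there, holds none of the searched letters.
Cdk1 (chr10:69352913-69353062, minus strand): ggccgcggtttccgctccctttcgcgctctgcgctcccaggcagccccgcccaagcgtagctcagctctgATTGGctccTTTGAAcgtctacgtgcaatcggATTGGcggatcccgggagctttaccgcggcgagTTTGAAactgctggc
Cdc20 (chr4:118437344-118437493, minus strand): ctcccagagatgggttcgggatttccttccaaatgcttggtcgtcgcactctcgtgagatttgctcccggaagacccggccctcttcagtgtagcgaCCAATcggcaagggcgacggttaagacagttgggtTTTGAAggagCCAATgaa
Top2a (chr11:99024190-99024339, minus strand): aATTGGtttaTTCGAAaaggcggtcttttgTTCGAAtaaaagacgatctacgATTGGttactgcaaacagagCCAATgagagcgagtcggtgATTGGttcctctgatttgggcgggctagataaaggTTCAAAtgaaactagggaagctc
Kif11 (chr19:37376232-37376381, plus strand): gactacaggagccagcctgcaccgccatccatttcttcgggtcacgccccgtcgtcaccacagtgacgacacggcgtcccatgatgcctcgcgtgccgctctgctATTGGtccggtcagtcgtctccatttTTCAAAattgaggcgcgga
Ube2c (chr2:164769779-164769928, plus strand): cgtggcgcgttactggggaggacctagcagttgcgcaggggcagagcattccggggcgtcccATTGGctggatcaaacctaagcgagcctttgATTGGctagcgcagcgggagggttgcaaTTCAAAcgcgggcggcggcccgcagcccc
Ccnb1 (chr13:100786487-100786636, minus strand): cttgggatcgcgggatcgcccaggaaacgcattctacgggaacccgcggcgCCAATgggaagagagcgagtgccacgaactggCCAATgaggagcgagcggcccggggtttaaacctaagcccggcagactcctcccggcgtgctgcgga
Mybl2 (chr2:163054485-163054634, plus strand): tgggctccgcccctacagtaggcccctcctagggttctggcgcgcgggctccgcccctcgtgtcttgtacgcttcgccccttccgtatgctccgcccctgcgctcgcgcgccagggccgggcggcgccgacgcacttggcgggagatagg

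Levels are CPM, the counts of a gene scaled to a common library total, on library sizes scaled by the trimmed mean of M-values (TMM), and values of a group are listed in the order of the replicate numbers. Ppara, the targeted gene, stood at 120.1, 96.2, 238 and 226 CPM in WT chow, 59.5, 75.5 and 73.5 CPM in WT CDAHFD, 14.4 and 38.7 CPM in KO chow and 36.3, 20.7 and 51.9 CPM in KO CDAHFD. Every KO library was below every WT library, and counts over the whole gene do not separate the deleted part or the cells that kept it. Summed over 10 hepatocyte markers, levels ranged over 98388 to 115280 CPM in WT chow and 80429 to 93701 CPM in KO chow, and with CDAHFD over 50040 to 59618 CPM in WT and 47576 to 61636 CPM in KO libraries, so all libraries held liver transcripts at high level. In a whole-liver sample, a change in the number of cells of a type and a change in RNA per cell cannot be told apart. Libraries differed among themselves in clock genes: a score of 3 genes (Arntl, Npas2, Clock) minus 6 (Nr1d1, Nr1d2, Dbp, Tef, Per3, Ciart), in log2 CPM, was 3.81, 3.22, -3.33 and -3.32 in WT chow, 1.33, 2.23 and 2.32 in WT CDAHFD, 3.22 and -1.38 in KO chow, and 1.80, 1.64 and -3.74 in KO CDAHFD.

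The members were low in WT chow and high in the other 3 groups. Their summed level was 80.9, 68.9, 88.4 and 65.0 CPM in the 4 WT chow libraries (mean 75.8, SD 10.8). It was 698, 638 and 619 CPM in WT CDAHFD (mean 652, SD 41.3), 1173 and 592 CPM in KO chow (mean 882, SD 411), and 683, 657 and 341 CPM in KO CDAHFD (mean 560.2, SD 190.3). The group means were 8.60 times that of WT chow in WT CDAHFD, 11.6 times in KO chow and 7.39 times in KO CDAHFD, and the lowest library of these 3 groups lay above the highest of WT chow. Member counts summed to 1417 to 2652 in a WT chow library and 14340 to 43124 in any other, so the WT chow values carry the larger counting error. 2 libraries stood apart. KO chow replicate 1 was the highest of the 12 libraries for 55 of the 60 members, and KO CDAHFD replicate 3 the lowest of the 8 libraries outside WT chow for 53. The comparisons are therefore also given without them.

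**Figure D1:**
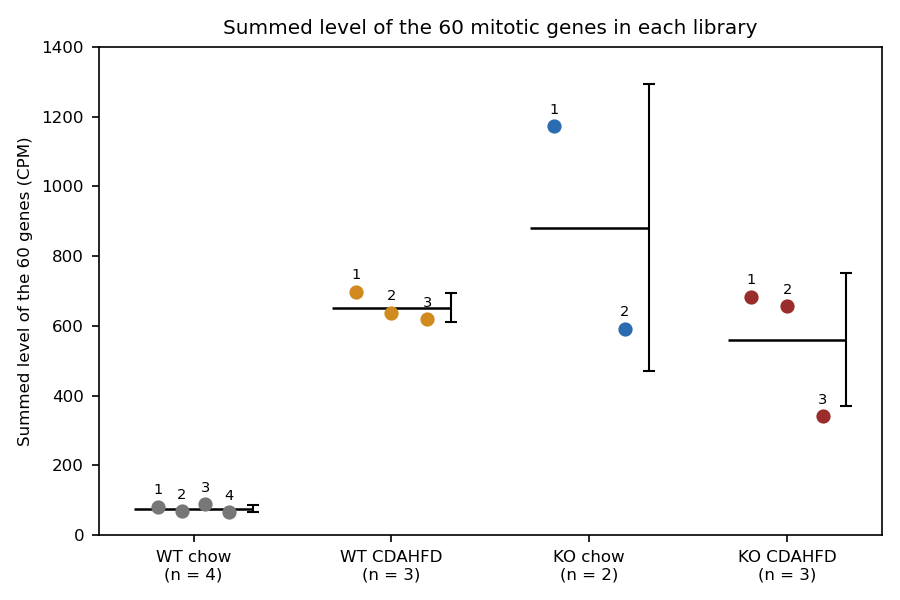
Summed level of the 60 mitotic genes in each library, in CPM on a linear axis from 0; points are libraries with their replicate numbers, lines are group means and bars are SDs. The 4 WT chow libraries lie between 65.0 and 88.4 CPM and the 8 other libraries between 341 and 1173 CPM, with KO chow replicate 1 highest and KO CDAHFD replicate 3 lowest among the 8.

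The first comparison asked what hepatocyte loss of PPARα did to these genes on chow. In KO chow against WT chow, 59 of the 60 members were called higher and 0 lower by edgeR's quasi-likelihood test (adjusted p under 0.05 over 17358 genes), where 22.0% of all genes tested were called higher and 17% lower. The median log2 fold change of the members was 4.13, against 0.00 for all genes tested, and 52 members were at 4-fold or more and 34 at 16-fold or more. In all 60 members both KO chow libraries lay above all 4 WT chow libraries, a pattern that 27.2% of all genes tested showed. The second comparison asked what CDAHFD did in WT liver. In WT CDAHFD against WT chow, 58 members were called higher and 0 lower, where 26.1% of all genes tested were called higher and 25.0% lower. The median was 3.76 against -0.05 for all genes, with 49 members at 4-fold or more and 27 at 16-fold or more. In 58 members the 3 WT CDAHFD libraries lay above all 4 WT chow libraries, a pattern of 28.0% of all genes tested. Without KO chow replicate 1, 58 members were called higher in KO chow, where 15.4% of all genes tested were called higher and 8.26% lower. The members' median was then 3.59, and 50 were at 4-fold or more and 21 at 16-fold or more. The fold change of 26 members was lower by more than 1.5 times. Of these 26, Spc25 lost its call. With library size only, 60 members were called higher in each comparison, and the shares of all genes tested that were called higher and lower became 40.5% and 6.62% in KO chow and 52.4% and 6.74% in WT CDAHFD. Both comparisons share the WT chow libraries, so their fold changes are given side by side and not as independent results.

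**Figure D2:**
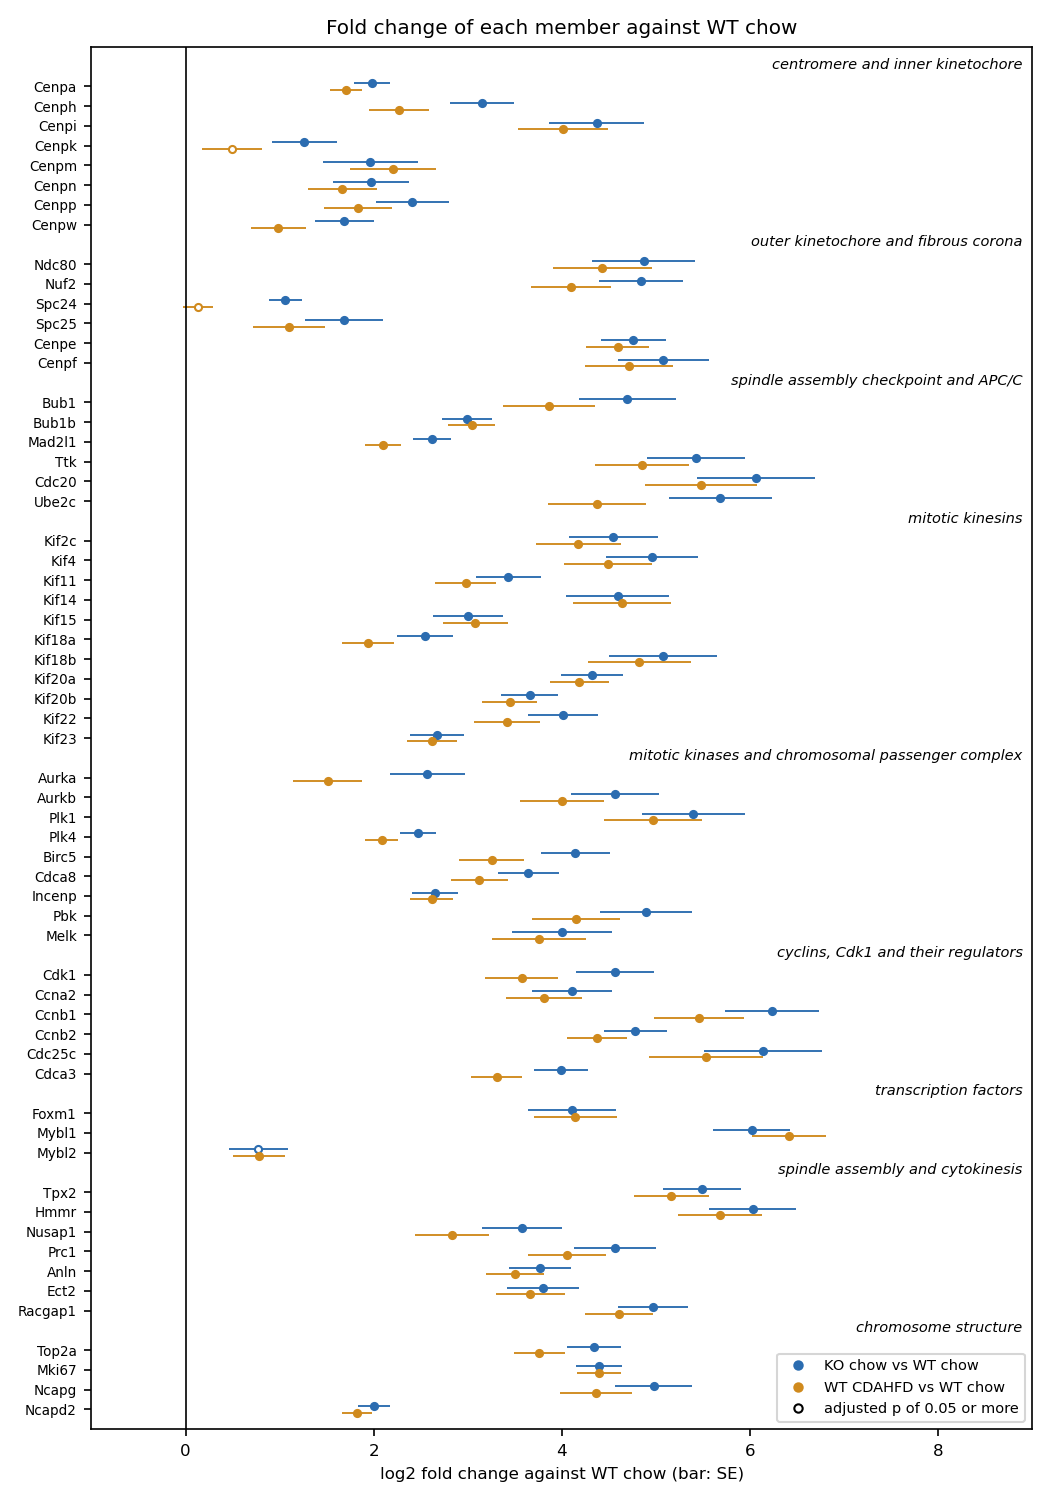
Log2 fold change of each of the 60 members with WT chow as the baseline, for KO chow and for WT CDAHFD, in blocks by role; points are estimates of edgeR's quasi-likelihood fit, bars are SEs, and open points have an adjusted p of 0.05 or more. The open points are Mybl2 in KO chow and Cenpk and Spc24 in WT CDAHFD.

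Cdk1, its cyclins and their regulators rose in both comparisons, 6 of 6 in each, with medians of 4.67 in KO chow and 4.09 in WT CDAHFD on the log2 scale. Cdk1, the kinase that drives entry into mitosis, stood at 1.13, 0.787, 1.701 and 0.963 CPM in WT chow, 14.1, 14.04 and 12.98 CPM in WT CDAHFD, 40.4 and 14.2 CPM in KO chow, and 16.8, 17.97 and 8.09 CPM in KO CDAHFD. KO chow replicate 1 was well above all other libraries, and every library outside WT chow was above the WT chow range. Cdk1 rose by 4.56 (SE 0.41, adjusted p = 3.77e-06) in KO chow and 3.57 (SE 0.39, adjusted p = 8.31e-06) in WT CDAHFD on the log2 scale. Ccnb1, cyclin B1, stood at 0.544, 0.157, 0.433 and 0.321 CPM in WT chow, 17.3, 15.3 and 15.1 CPM in WT CDAHFD, 38.4 and 16.3 CPM in KO chow, and 18.3, 15.9 and 5.73 CPM in KO CDAHFD. It had the largest log2 fold change of the members in KO chow with all libraries, 6.24 (SE 0.50, adjusted p = 1.49e-06), though without KO chow replicate 1 Cdc25c and Hmmr (5.55) were above it, and one of 5.46 (SE 0.48, adjusted p = 1.4e-06) in WT CDAHFD. Ccnb2, cyclin B2, stood at 0.776, 0.283, 0.9003 and 0.826 CPM in WT chow, 16.8, 13.9 and 12.2 CPM in WT CDAHFD, 22.7 and 15.2 CPM in KO chow, and 16, 12.9 and 8.801 CPM in KO CDAHFD. Ccnb2 rose by 4.78 (SE 0.33) in KO chow and 4.38 (SE 0.32) in WT CDAHFD on the log2 scale. Ccna2, cyclin A2, stood at 1.98, 0.944, 1.03 and 0.505 CPM in WT chow, 18.03, 14.6 and 14.8 CPM in WT CDAHFD, 27.1 and 11.8 CPM in KO chow, and 17.04, 14.9 and 7.45 CPM in KO CDAHFD. Ccna2 rose by 4.11 (SE 0.43) in KO chow and 3.81 (SE 0.41) in WT CDAHFD on the log2 scale, and it overlaps Exosc9 on the opposite strand, whose counts exceeded its own (108.4% of them). Cdc25c, the phosphatase that activates Cdk1, stood at 0.0776, 0, 0.0333 and 0.138 CPM in WT chow, 3.07, 2.602 and 2.49 CPM in WT CDAHFD, 5.44 and 2.86 CPM in KO chow, and 2.81, 2.83 and 0.928 CPM in KO CDAHFD. WT chow held 6 Cdc25c counts in all, so its ratio rests on few counts. The ratio of summed CPM was 74.3 (95% counting interval 33.7 to 204) for KO chow and 49.6 (22.6 to 136) for WT CDAHFD. Cdca3, which promotes mitotic entry, had log2 fold changes of 3.99 (SE 0.29) in KO chow and 3.31 (SE 0.27) in WT CDAHFD. Without KO chow replicate 1 the KO chow median of the 6 was 4.06, with 3.64 for Cdk1, 5.51 for Ccnb1, 3.41 for Ccna2 and 5.62 for Cdc25c.

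Of the 3 transcription factors, Mybl1 and Foxm1 rose by 16-fold or more in both comparisons, while Mybl2 stayed under 2-fold. With KO chow replicate 1 left out, the log2 fold change in KO chow was 5.31 for Mybl1, 3.86 for Foxm1 and 0.73 for Mybl2. Mybl1, the A-Myb factor, stood at 0.466, 0.346, 0.10 and 0.275 CPM in WT chow, 20.5, 31.2 and 24.3 CPM in WT CDAHFD, 26.8 and 11.7 CPM in KO chow, and 17.9, 18.9 and 11.99 CPM in KO CDAHFD. All libraries outside WT chow were above 11 CPM, and all WT chow libraries were below 0.5 CPM. Its log2 fold change, 6.42 (SE 0.40, adjusted p = 8.86e-08) in WT CDAHFD, was the largest of the members there, and it was 6.02 (SE 0.41, adjusted p = 4.48e-07) in KO chow. Foxm1, which drives G2 and M phase genes, stood at 0.505, 0.157, 1.3 and 0.321 CPM in WT chow, 11.96, 9.65 and 9.37 CPM in WT CDAHFD, 11.8 and 8.39 CPM in KO chow, and 11.01, 8.23 and 6.02 CPM in KO CDAHFD. Foxm1 rose by 4.11 (SE 0.46, adjusted p = 2.19e-05) in KO chow and 4.15 (SE 0.44, adjusted p = 6.76e-06) in WT CDAHFD on the log2 scale, and the WT chow libraries spread from 0.157 to 1.3 CPM. Mybl2, the B-Myb partner of MuvB, stood at 0.582, 0.724, 0.467 and 0.459 CPM in WT chow, 1.25, 0.796 and 0.852 CPM in WT CDAHFD, 1.01 and 0.922 CPM in KO chow, and 0.9697, 1.04 and 0.809 CPM in KO CDAHFD. Its levels outside WT chow were all above those in WT chow, and the gap was small. It was not called in KO chow, 0.78 (SE 0.31, adjusted p = 0.065), and was the 1 member without a call there. It was called without WT chow replicate 2 (0.95, adjusted p = 0.0365) and with library size only (1.17, adjusted p = 0.00733). In WT CDAHFD it was called, 0.78 (SE 0.28, adjusted p = 0.0313), and the call was lost without WT chow replicate 3 (adjusted p = 0.068), WT chow replicate 4 (0.0668) or WT CDAHFD replicate 1 (0.162), and with all libraries kept it was lost with no filter on low counts (0.0768) or with the replicate number as a block (0.0943). Per kilobase of exon, Mybl2 was the lowest of the 60 members in KO chow and in WT CDAHFD (0.208 and 0.209 CPM per kilobase).

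The centromere and inner kinetochore genes had the lowest median log2 fold change of the 9 roles in both comparisons. The difference between roles was not tested, and their ranges overlapped. In KO chow the range was 1.26 to 4.37 here and 1.06 to 5.08 in the outer kinetochore. All 8 were called higher in KO chow (median 1.98) and 7 of 8 in WT CDAHFD (median 1.77). Cenpa, the histone H3 variant that marks centromeres, stood at 6.02, 6.55, 6.47 and 6.28 CPM in WT chow, 22.6, 19.3 and 20.04 CPM in WT CDAHFD, 30.2 and 19.8 CPM in KO chow, and 20.6, 20.4 and 13.4 CPM in KO CDAHFD. It had a narrow spread in WT chow (SD 0.235 CPM), and its log2 fold change was 1.98 (SE 0.19, adjusted p = 5.22e-06) in KO chow and 1.71 (SE 0.17, adjusted p = 4.67e-06) in WT CDAHFD. Cenpk, an inner kinetochore subunit, stood at 0.466, 0.8499, 1.37 and 0.871 CPM in WT chow, 1.43, 1.495 and 0.852 CPM in WT CDAHFD, 2.09 and 2.21 CPM in KO chow, and 1.41, 1.42 and 1.28 CPM in KO CDAHFD. Its WT chow and WT CDAHFD libraries overlapped. It was called in KO chow, 1.26 (SE 0.35, adjusted p = 0.0114), a call lost without KO chow replicate 2 (1.23, adjusted p = 0.0556), and not in WT CDAHFD, 0.50 (SE 0.32, adjusted p = 0.213), where leaving out WT chow replicate 3 gave a call (0.81, adjusted p = 0.0477), as did library size only (1.06, adjusted p = 0.0112). Cenpk overlaps Ppwd1, and Cenpp overlaps Ippk, both on the opposite strand and with more counts than the member, and reads without strand cannot be told apart there. Cenpi rose most of the 8, with log2 fold changes of 4.37 (SE 0.50) in KO chow and 4.01 (SE 0.48) in WT CDAHFD, and 3.61 in KO chow without replicate 1. Cenpw, at 0.99 in WT CDAHFD, lost its call there without WT CDAHFD replicate 1 (0.83, adjusted p = 0.0607). The others, Cenph, Cenpm, Cenpn and Cenpp, lay between 1.97 and 3.15 in KO chow and between 1.67 and 2.27 in WT CDAHFD.

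The outer kinetochore genes split. Ndc80 and Nuf2, which bind spindle microtubules, and Cenpe and Cenpf of the outermost layer rose by 16-fold or more in KO chow (without replicate 1, Nuf2 was at 3.95 and the others at 16-fold or more), while Spc24 and Spc25, which tie the Ndc80 complex to the inner kinetochore, stayed under 4-fold. All 6 were called higher in KO chow (median 4.801) and 5 of 6 in WT CDAHFD (median 4.26). Ndc80 stood at 0.388, 0, 0.233 and 0.0917 CPM in WT chow, 3.46, 4.37 and 3.71 CPM in WT CDAHFD, 6.99 and 3.47 CPM in KO chow, and 3.25, 3.74 and 2.19 CPM in KO CDAHFD. Ndc80 rose by 4.87 (SE 0.55) in KO chow and 4.43 (SE 0.52) in WT CDAHFD on the log2 scale. Spc24 stood at 9.36, 13.4, 14.4 and 10.3 CPM in WT chow, 13.6, 11.9 and 13.5 CPM in WT CDAHFD, 28.1 and 21.6 CPM in KO chow, and 16.7, 18.5 and 15.2 CPM in KO CDAHFD. It was the member with the highest level per kilobase in WT chow (4.61 CPM per kilobase), the WT CDAHFD libraries lay within the range of WT chow, and the 2 KO chow libraries lay above all others. It was called in KO chow, 1.06 (SE 0.18, adjusted p = 0.000426), and not in WT CDAHFD, 0.13 (SE 0.16, adjusted p = 0.516), where library size only gave a call (0.69, adjusted p = 0.00209). Spc25 rose by 1.69 in KO chow, and without KO chow replicate 1 this was 0.85 (adjusted p = 0.208). In WT CDAHFD it rose by 1.102, and the call was lost without WT chow replicate 2 (adjusted p = 0.0508), WT CDAHFD replicate 1 (0.0763) or WT CDAHFD replicate 3 (0.0658). Cenpe, a kinetochore kinesin, stood at 0.311, 0.504, 0.834 and 0.367 CPM in WT chow, 13.7, 12.9 and 10.9 CPM in WT CDAHFD, 18.3 and 9.85 CPM in KO chow, and 11.7, 11.1 and 6.59 CPM in KO CDAHFD. Cenpe rose by 4.76 (SE 0.35, adjusted p = 7.42e-07) in KO chow and 4.59 (SE 0.33, adjusted p = 2.8e-07) in WT CDAHFD on the log2 scale. Nuf2 and Cenpf had log2 fold changes of 4.84 and 5.08 in KO chow and of 4.098 and 4.72 in WT CDAHFD. Without KO chow replicate 1 the KO chow median of the 6 was 4.11, and Cenpf was at 4.29.

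The checkpoint and APC/C genes rose in both comparisons, 6 of 6 in each, with medians of 5.06 in KO chow and 4.12 in WT CDAHFD. The KO chow median without replicate 1 was 4.28, with 5.41 for Cdc20, 4.47 for Ube2c, 4.83 for Ttk and 4.09 for Bub1. Cdc20, which activates the APC/C, stood at 0.738, 0.2203, 1.5 and 0.183 CPM in WT chow, 34.8, 25.9 and 30.8 CPM in WT CDAHFD, 62.8 and 28.6 CPM in KO chow, and 41.6, 34.97 and 10.2 CPM in KO CDAHFD. WT chow libraries differed among themselves (0.183 to 1.5 CPM), and all lay far below the others. Cdc20 rose by 6.07 (SE 0.63, adjusted p = 1.04e-05) in KO chow and 5.48 (SE 0.60, adjusted p = 8.86e-06) in WT CDAHFD on the log2 scale. Per kilobase of exon, Cdc20 was the highest of the 60 members in WT CDAHFD, KO chow and KO CDAHFD (16.3, 24.5 and 15.5 CPM per kilobase), and it overlaps Elovl1, which held more counts (29013 against 11457 for Cdc20), by 53 bases on the opposite strand. Ube2c, the enzyme that hands ubiquitin to APC/C substrates, stood at 0.699, 0.409, 0.9003 and 0.734 CPM in WT chow, 15.7, 13.4 and 13.4 CPM in WT CDAHFD, 55.4 and 14.9 CPM in KO chow, and 17.6, 19.4 and 5.68 CPM in KO CDAHFD. KO chow replicate 1 was 3.71 times replicate 2, the largest ratio of the members. Ube2c rose by 5.68 (SE 0.55) in KO chow and 4.37 (SE 0.52) in WT CDAHFD on the log2 scale. Bub1b, the checkpoint kinase BubR1, stood at 1.32, 1.29, 1.57 and 0.688 CPM in WT chow, 10.7, 9.59 and 10.2 CPM in WT CDAHFD, 11.7 and 7.98 CPM in KO chow, and 9.24, 8.101 and 5.66 CPM in KO CDAHFD. Bub1b rose by 2.996 (SE 0.27, adjusted p = 3.25e-06) in KO chow and 3.04 (SE 0.25, adjusted p = 7.44e-07) in WT CDAHFD on the log2 scale. Ttk, the kinase Mps1, had log2 fold changes of 5.42 (SE 0.52) in KO chow and 4.85 (SE 0.50) in WT CDAHFD, Bub1 of 4.699 (SE 0.51) in KO chow and 3.86 (SE 0.49) in WT CDAHFD, and Mad2l1 of 2.62 (SE 0.20) in KO chow and 2.097 (SE 0.19) in WT CDAHFD.

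All 11 mitotic kinesins rose in both comparisons, with medians of 4.01 in KO chow and 3.44 in WT CDAHFD. Kif11, the motor that pushes spindle poles apart, stood at 1.28, 0.976, 1.801 and 1.74 CPM in WT chow, 11.6, 12.3 and 10.3 CPM in WT CDAHFD, 21.2 and 10.1 CPM in KO chow, and 12.1, 10.3 and 5.45 CPM in KO CDAHFD. Kif11 rose by 3.43 (SE 0.34, adjusted p = 8.2e-06) in KO chow and 2.98 (SE 0.32, adjusted p = 8.19e-06) in WT CDAHFD on the log2 scale. The range over the 11 ran from 2.54 (Kif18a, which dampens chromosome oscillation) to 5.07 (Kif18b) in KO chow, and from 1.94 (Kif18a) to 4.82 (Kif18b) in WT CDAHFD. Without KO chow replicate 1 the KO chow median was 3.204, the highest value was that of Kif4 (4.45), and the log2 fold change was 4.18 for Kif18b, 3.72 for Kif2c, 3.204 for Kif22 and 2.82 for Kif11. Kif20a and Kif23, motors of cytokinesis, had log2 fold changes of 4.32 and 2.68 in KO chow and of 4.18 and 2.62 in WT CDAHFD. Kif2c, a microtubule depolymerase, was at 4.55 and 4.18, and Kif4 and Kif22, which bind chromosome arms, at 4.96 and 4.01 in KO chow. Kif14, Kif15 and Kif20b lay between 3.002 and 4.59 in KO chow. Kif4, Kif18a and Kif20a overlap genes on the opposite strand (Pdzd11, Mettl15 and Cdc23) that held more counts than they did.

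The mitotic kinases and the chromosomal passenger complex rose too, 9 of 9 in each comparison, with medians of 4.003 and 3.25. With KO chow replicate 1 left out, the first median was 3.56, with 1.61 for Aurka, 3.67 for Aurkb, 4.58 for Plk1, 3.94 for Pbk and 3.03 for Cdca8. Aurkb, the kinase of the passenger complex, stood at 0.427, 0.441, 0.367 and 0.183 CPM in WT chow, 6.66, 4.82 and 6.096 CPM in WT CDAHFD, 12.8 and 4.61 CPM in KO chow, and 7.32, 8.74 and 3.33 CPM in KO CDAHFD. Aurkb rose by 4.57 (SE 0.47, adjusted p = 9.41e-06) in KO chow and 4.002 (SE 0.44, adjusted p = 9.95e-06) in WT CDAHFD on the log2 scale. Birc5, survivin, which brings the complex to centromeres, stood at 1.09, 1.7, 0.7003 and 0.826 CPM in WT chow, 12.9, 8.97 and 9.46 CPM in WT CDAHFD, 25.97 and 12.8 CPM in KO chow, and 11.1, 12.99 and 6.64 CPM in KO CDAHFD. Birc5 rose by 4.14 (SE 0.37) in KO chow and 3.25 (SE 0.34) in WT CDAHFD on the log2 scale. The other passenger subunits, Cdca8 and Incenp, had log2 fold changes of 3.64 and 2.66 in KO chow and of 3.12 and 2.62 in WT CDAHFD. Plk1, a kinase of entry, spindle and exit, stood at 0.544, 0.315, 0.433 and 0.229 CPM in WT chow, 13.8, 10.7 and 11.8 CPM in WT CDAHFD, 23.5 and 9.14 CPM in KO chow, and 16.3, 13.9 and 3.88 CPM in KO CDAHFD. Plk1 rose by 5.397 (SE 0.55, adjusted p = 8.99e-06) in KO chow and 4.97 (SE 0.52, adjusted p = 6.5e-06) in WT CDAHFD on the log2 scale. Aurka, the spindle pole kinase, stood at 4.35, 3.53, 2.87 and 2.57 CPM in WT chow, 9.73, 9.59 and 9.24 CPM in WT CDAHFD, 29.6 and 10.1 CPM in KO chow, and 10.6, 12.8 and 4.69 CPM in KO CDAHFD. The 2 KO chow libraries differed by a factor of 2.94, and replicate 2 lay close to the WT CDAHFD libraries. Aurka rose by 2.57 (SE 0.40) in KO chow and 1.51 (SE 0.37) in WT CDAHFD on the log2 scale. Pbk, a mitotic kinase, stood at 0.349, 0.283, 0.333 and 0.596 CPM in WT chow, 7.62, 6.64 and 6.18 CPM in WT CDAHFD, 17 and 5.82 CPM in KO chow, and 8.05, 8.29 and 2.97 CPM in KO CDAHFD. Pbk rose by 4.89 (SE 0.49) in KO chow and 4.15 (SE 0.46) in WT CDAHFD on the log2 scale. Plk4, which duplicates centrioles, stood at 1.86, 1.26, 1.53 and 1.65 CPM in WT chow, 7.13, 6.19 and 6.75 CPM in WT CDAHFD, 10.2 and 7.25 CPM in KO chow, and 5.45, 5.53 and 4.85 CPM in KO CDAHFD. Its 3 KO CDAHFD libraries lay above WT chow and below all WT CDAHFD and KO chow libraries. Plk4 rose by 2.47 (SE 0.19) in KO chow and 2.09 (SE 0.18) in WT CDAHFD on the log2 scale. Melk had log2 fold changes of 4.003 (SE 0.53) in KO chow and 3.76 (SE 0.50) in WT CDAHFD. Cdca8 overlaps 9930104L06Rik on the opposite strand, which held more counts.

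The 7 spindle assembly and cytokinesis genes and the 4 chromosome structure genes were all called higher in both comparisons. Leaving out KO chow replicate 1 gave log2 fold changes in KO chow of 2.69 for Nusap1, 3.896 for Prc1, 3.18 for Anln, 3.20 for Ect2 and 3.65 for Top2a. Hmmr, a spindle assembly factor, stood at 0.194, 0.315, 0.6002 and 0.0917 CPM in WT chow, 18.4, 16.1 and 14.7 CPM in WT CDAHFD, 26.9 and 14.8 CPM in KO chow, and 14.8, 13.4 and 5.78 CPM in KO CDAHFD. Hmmr rose by 6.03 (SE 0.46, adjusted p = 1.1e-06) in KO chow and 5.68 (SE 0.44, adjusted p = 5.3e-07) in WT CDAHFD on the log2 scale. Tpx2, the activator of Aurora A on the spindle, was at 5.49 and 5.16, and Racgap1, a subunit of centralspindlin, at 4.97 and 4.61. Prc1, which bundles midzone microtubules, was at 4.57 and 4.06. Anln, a scaffold of the contractile ring, Ect2, which activates RhoA there, and Nusap1 lay between 3.58 and 3.802 in KO chow. Prc1 and Nusap1 overlap Rccd1 and Oip5 on the opposite strand, which held 39.3% and 31.1% of their counts. Mki67, the proliferation marker Ki-67 that coats mitotic chromosomes, stood at 2.25, 1.57, 2.47 and 2.11 CPM in WT chow, 46.6, 44.95 and 40.99 CPM in WT CDAHFD, 50.7 and 37.6 CPM in KO chow, and 46.9, 50.2 and 25.7 CPM in KO CDAHFD. Its log2 fold changes in the 2 comparisons were nearly equal, 4.39 (SE 0.25, adjusted p = 1.1e-07) in KO chow and 4.397 (SE 0.24, adjusted p = 3.24e-08) in WT CDAHFD. Top2a, the topoisomerase that untangles sister chromatids, stood at 2.096, 1.98, 2.301 and 1.24 CPM in WT chow, 26.5, 26.3 and 25.5 CPM in WT CDAHFD, 54.2 and 23.9 CPM in KO chow, and 25.02, 22.7 and 17.01 CPM in KO CDAHFD. Top2a rose by 4.34 (SE 0.29, adjusted p = 3.61e-07) in KO chow and 3.76 (SE 0.27, adjusted p = 2.76e-07) in WT CDAHFD on the log2 scale. The condensin I subunits Ncapg and Ncapd2 were at 4.98 and 2.002 in KO chow and at 4.36 and 1.82 in WT CDAHFD. Ncapg overlaps Lcorl on the opposite strand, which held more counts.

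**Figure D3:**
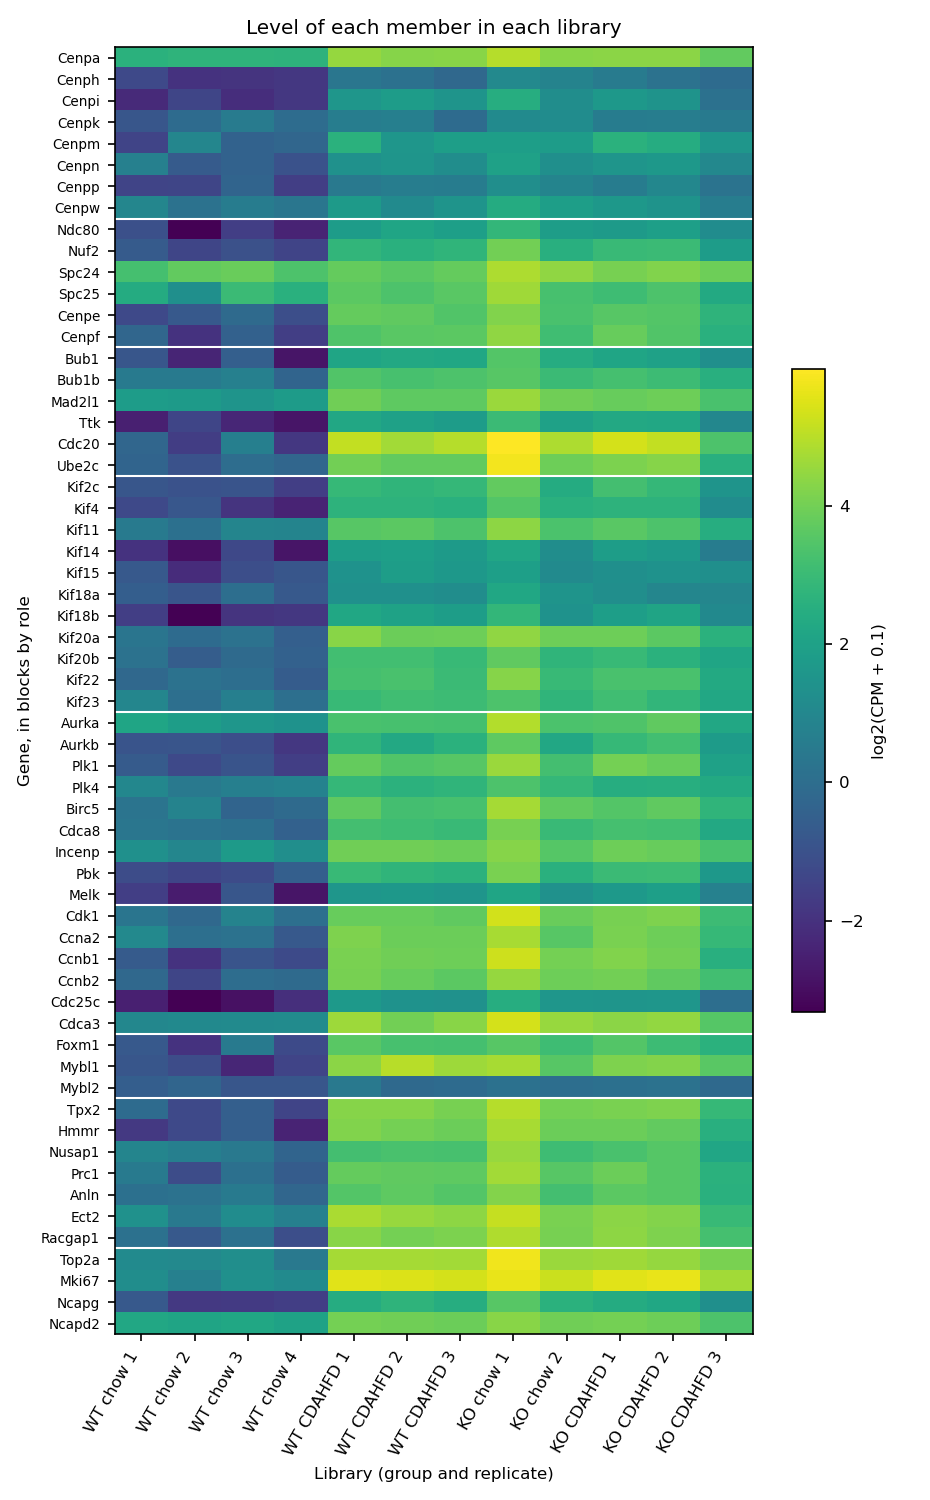
Level of each of the 60 members in each of the 12 libraries, as log2(CPM + 0.1), with genes in blocks by role in the order of the fold change plot and libraries in columns by group and replicate. The 4 WT chow columns are dark for nearly all members, KO chow replicate 1 is the brightest column, and Spc24 and Mybl2 differ little in colour between WT chow and the rest.

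The third comparison asked whether genotype mattered under CDAHFD. In KO CDAHFD against WT CDAHFD, 0 members were called in either direction by edgeR's quasi-likelihood test, 0 had an unadjusted p under 0.05, and DESeq2 called 0. In this comparison 0.0864% of all genes tested were called higher and 0.271% lower, and 1523 of 17358 had an unadjusted p under 0.05. DESeq2 called 0.372% of the 30104 genes with a count higher and 0.425% lower. The median log2 fold change of the members was -0.19, against 0.01 for all genes, and 51 of 60 were below 0. The values ran from -0.64 (Mybl1, SE 0.30) to 0.36 (Spc24, SE 0.17). A p above the threshold does not show that the genotypes were equal. KO CDAHFD replicate 3 moved this median: without it the median was 0.05.

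The fourth comparison, KO CDAHFD against KO chow, asked what the diet did without hepatocyte PPARα. Here 59 of 60 members were below 0, with a median log2 fold change of -0.67 against -0.01 for all genes. 21 members had an unadjusted p under 0.05, 0 of them higher, where 4002 of 17358 genes tested had one, 2069 of them higher. 1 member was called lower and 0 higher, where 2.44% and 3.76% of all genes tested were. With no filter on low counts 10 were called lower, where 1.53% of the 30104 genes with a count were. DESeq2 and the clock score each called 2 lower. DESeq2 called 2.24% of the 30104 genes lower, and the clock score 4.64% of the 17358 genes tested. Library size only called 0 lower, where 0.795% of all genes tested were called lower and 7.17% higher. The called member was Plk4, -0.72 (SE 0.19, adjusted p = 0.0466), a call lost in 16 of 20 alternatives, with adjusted p from 0.0111 to 0.485 over them. In 11 members all KO CDAHFD libraries lay below both KO chow libraries, a pattern of 19.2% of all genes. The median rested on KO chow replicate 1: without it the median was -0.05 and 0 members were called. There 0.422% of all genes tested were called lower and 0.855% higher. Without KO chow replicate 1 and KO CDAHFD replicate 3 the median was 0.20.

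KO chow was also set against WT CDAHFD, to compare the levels that genotype and diet reached. In this contrast 52 of 60 members were above 0, with a median log2 fold change of 0.43 against 0.00 for all genes. 8 members had an unadjusted p under 0.05, all 8 higher, where 4168 of 17358 genes tested had one, 2120 of them higher. 1 member was called higher and 0 lower, where 2.71% and 3.42% of all genes tested were. With no filter on low counts 4 were called higher, where 1.88% of the 30104 genes with a count were. With the clock score 8 were, where 7.26% of all genes tested were called higher and 7.47% lower. Leaving out 1 library gave 0 to 5 higher, where 0.642% to 3.82% of all genes tested were. Library size only gave 1, where 1.39% of all genes tested were called higher and 5.91% lower. The called member was Spc24, 0.93 (SE 0.19, adjusted p = 0.0136), and the call was lost without KO chow replicate 1 (0.72, adjusted p = 0.158) or without WT CDAHFD replicate 2 (0.87, adjusted p = 0.0615). Without KO chow replicate 1 the median was -0.16. KO chow replicate 1 lay above all 3 WT CDAHFD libraries in 56 members. KO chow replicate 2 lay above all 3 in 11 members, within their range in 20 and below all 3 in 29. Both KO chow libraries lay above all 3 in 11 members (18.3%), a pattern of 24.5% of all genes tested. Both lay below all 3 in 0 members, a pattern of 24.1% of all genes tested.

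The interaction of genotype and diet, the KO minus WT difference under CDAHFD less that on chow, was called lower for 56 of 60 members and higher for 0, where 14.5% of all genes tested were called lower and 8.63% higher. Its median was -4.41 against 0.01 for all genes. The median was -3.67 without KO chow replicate 1, with 54 members lower, and -3.44 without it and KO CDAHFD replicate 3, with 52 lower. In these settings 10.6% and 11.5% of all genes tested were called lower, and 4.86% and 6.23% higher. With library size only, 59 members were called lower, where 24.6% of all genes tested were called lower and 3.89% higher. It used the same WT chow libraries as the first 2 comparisons. The 5 with the smallest adjusted p were Mki67, -4.505 (SE 0.33, adjusted p = 2.96e-06), Mybl1, -6.66 (SE 0.53, adjusted p = 4.6e-06), Top2a, -4.61 (SE 0.39, adjusted p = 7.43e-06), Ccnb2, -4.97 (SE 0.44, adjusted p = 1.03e-05), and Cenpe, -5.12 (SE 0.46, adjusted p = 1.12e-05). Cenpk, Cenpm, Mybl2 and Spc24 were not called, at -1.15, -1.78, -0.81 and -0.70. Calls were gained without WT chow replicate 2 (Cenpm -2.48, Spc24 -0.77), WT chow replicate 3 (Cenpk -1.44, Spc24 -0.80) or KO chow replicate 2 (Spc24 -0.88). With all libraries kept, calls of Cenpm and Spc24 were also gained by DESeq2 (-1.81 and -0.71), with no filter on low counts (-1.82 and -0.74) and with library size only (-2.14 and -1.06), the last of which also called Cenpk (-1.51). Calls were lost without KO chow replicate 1 (Cenpn -1.57, Spc25 -1.39) or WT CDAHFD replicate 2 (Cenpn -1.87). Without both KO chow replicate 1 and KO CDAHFD replicate 3, Cenpn (-1.41, adjusted p = 0.16), Spc25 (-1.15, adjusted p = 0.186), Cenpp (-1.93, adjusted p = 0.0526) and Cenpw (-1.34, adjusted p = 0.0578) were not called.

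The 2 KO chow libraries, compared side by side, differed in these genes. Replicate 1 was above replicate 2 in 59 of 60 members, with a median ratio of 1.93, and at 2-fold or more in 28. The median ratio of all genes tested was 1.001, and 50.1% of them were above 1. With 1 library on each side there is no test. The 3 members with the largest ratios were Ube2c (3.71), Aurka (2.94) and Pbk (2.92), followed by Cdk1 (2.84) and Aurkb (2.77). Cenpk was at 0.949, Cenpm at 1.05 and Mybl2 at 1.09. By role the median ratio ran from 1.39 in the inner kinetochore to 2.23 in the outer kinetochore. KO CDAHFD replicate 3 was below the mean of replicates 1 and 2 in all 60 members, with a median ratio of 0.518, against 0.994 for all genes. The lowest ratios were those of Plk1 (0.256), Cdc20 (0.267) and Ube2c (0.307). The 3 WT CDAHFD libraries were close, with a median SD of 0.14 in log2 CPM for the members and for all genes, while the members had 0.67 in KO chow and 0.56 in KO CDAHFD, against 0.21 for all genes in each, and 0.49 in WT chow, against 0.28 for all genes.

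Other cell cycle lists were compared between the same libraries. In KO chow replicate 1 against 2 the median ratio was 0.874 for 22 MCM and replication genes and 0.793 for 8 G1 cyclins and kinases, with 9 of 22 and 2 of 8 genes higher in replicate 1. Other kinetochore genes (1.35, 26 of 29 higher) and other spindle and cytokinesis genes (1.49, 29 of 32) shared the direction of the members. Other entry and exit genes did so as well (1.26, 17 of 23). The other condensin and cohesin genes, at 1.04 (9 of 14), were near the 1.001 of all genes tested. The 17 E2F, pocket protein and MuvB genes were at 1.02 (10 of 17). In KO CDAHFD replicate 3 against the mean of 1 and 2 these 5 lists were at 0.764 (5 of 29 higher), 0.771 (7 of 32), 0.865 (5 of 23), 0.869 (2 of 14) and 0.997 (8 of 17). There the median ratio was 0.824 for the MCM and replication genes (6 of 22 higher), the direction of the members, and 1.28 for the G1 list (6 of 8 higher). The 7 Cdk inhibitors had the direction of the members in both, with 1.76 (6 of 7 higher) in KO chow and 0.699 (1 of 7 higher) in KO CDAHFD. Ccnd1, cyclin D1, stood at 26.01, 8.81, 18.3 and 8.07 CPM in WT chow, 133, 155 and 142 CPM in WT CDAHFD, 161 and 280.0 CPM in KO chow, and 128, 117 and 261 CPM in KO CDAHFD. It was higher in KO chow replicate 2 than in replicate 1 and highest of the KO CDAHFD libraries in replicate 3, the reverse of the members. Ccne1, cyclin E1, stood at 0.466, 0.2203, 1.0 and 0.596 CPM in WT chow, 1.84, 1.88 and 2.45 CPM in WT CDAHFD, 2.56 and 5.31 CPM in KO chow, and 2.11, 2.22 and 4.71 CPM in KO CDAHFD, with the same order. Clock genes moved with this split as well: the clock score was 3.22 in KO chow replicate 1 and -1.38 in replicate 2, and it was 1.80, 1.64 and -3.74 in KO CDAHFD. In WT chow, where the score was above 3 in 2 libraries and below -3 in the other 2, the median member ratio between these pairs was 1.03. Single member ratios there ran from 0.481 to 2.45. Each WT chow library had 3 to 8 members with 3 counts or fewer, so many of these ratios rest on few counts. With the score as a covariate, 59 members were called higher in KO chow, 58 in WT CDAHFD and 56 lower in the interaction. In that setting 4140 of 17358 genes tested were called higher in KO chow, 4825 higher in WT CDAHFD and 2783 lower in the interaction. In KO chow against WT CDAHFD, 8 members were called higher, where 7.26% of all genes tested were, against 2.71% without the score. Macrophage and monocyte markers summed to nearly equal levels in KO chow (1615 and 1643 CPM), while those of T and NK cells (15.6 and 10.5), neutrophils (21.9 and 10.1), cholangiocytes (294 and 169), stellate cells and fibroblasts (1597 and 1400.2) and red cells (461 and 252) were higher in replicate 1. Those of B and plasma cells (6.77 and 18.3), endothelial cells (186 and 273) and hepatocytes (80429 and 93701) were lower in it. In KO CDAHFD replicate 3, all 8 endothelial markers were above the mean of the other 2 libraries (median ratio 1.80), as were 9 of 10 stellate cell and fibroblast markers (1.39) 7 of 7 cholangiocyte markers (1.18), 10 of 11 T and NK cell markers (1.21) and 4 of 5 B and plasma cell markers (1.34), while 2 of 4 neutrophil markers (1.06), 0 of 5 erythroid and haemoglobin genes (0.899), 5 of 17 macrophage and monocyte markers (0.853) and 3 of 10 hepatocyte markers (0.769) were. The T and NK cell, cholangiocyte, and stellate cell and fibroblast markers were higher in both KO chow replicate 1 and KO CDAHFD replicate 3. Hepatocyte markers were lower in both. Erythroid and haemoglobin genes had the direction of the members, with median ratios of 2.27 in KO chow and 0.899 in KO CDAHFD. B and plasma cell markers and endothelial markers had the reverse direction in both groups. The part of cell types and clock phase in the difference between libraries was not tested.

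**Figure D4:**
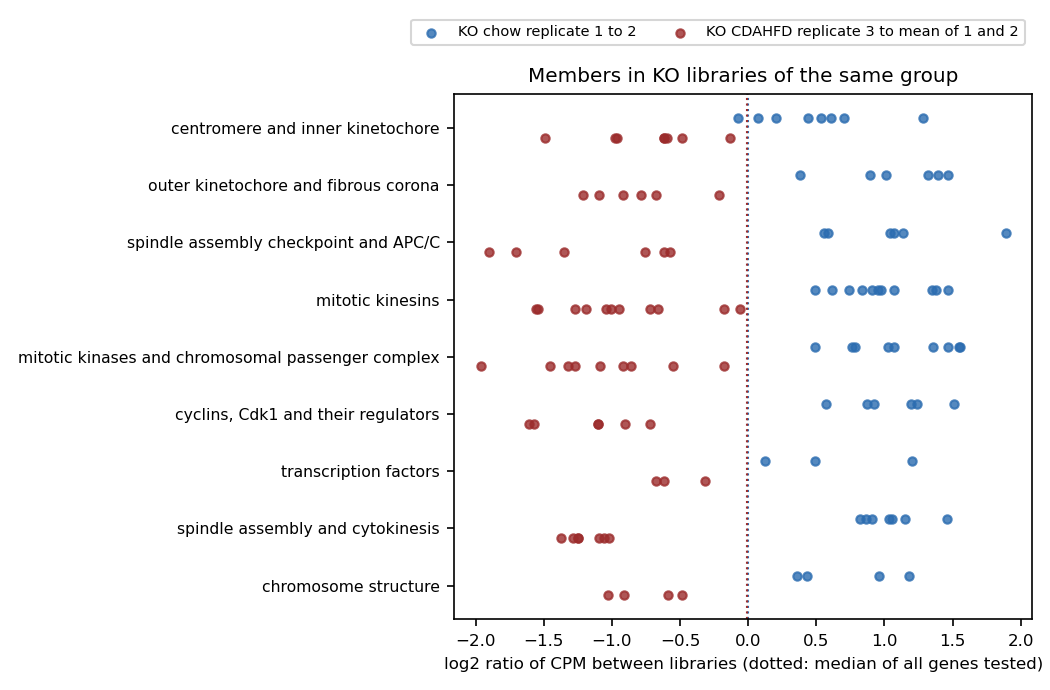
Log2 ratio of CPM of each member between libraries of 1 group, by role: KO chow replicate 1 to replicate 2 (blue), and KO CDAHFD replicate 3 to the mean of replicates 1 and 2 (red); dotted lines are medians over all genes tested. Points of KO chow lie right of 0 except Cenpk, and all points of KO CDAHFD lie left of 0.

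Mitotic genes outside the 60 are set beside the share of all genes tested, of which 22.0% were called higher and 17% lower in KO chow, and 26.1% higher and 25.0% lower in WT CDAHFD. Of 29 other kinetochore genes, 21 were called higher and 0 lower in KO chow (median 2.13), and 18 higher and 2 lower in WT CDAHFD (median 1.65). Those with the largest changes were Knl1, the scaffold of the outer kinetochore, Ska1, which follows microtubule ends, and Sgo1, which guards cohesion, at 5.35, 5.08 and 4.64 in KO chow. Kntc1 was at 4.11 in WT CDAHFD. Of 32 other spindle and cytokinesis genes, 23 were called higher and 1 lower in KO chow (median 3.25), and 24 higher and 2 lower in WT CDAHFD (median 2.64). Ckap2, a spindle microtubule protein, stood at 0.194, 0.0944, 0.6002 and 0.183 CPM in WT chow, 20.5, 14.7 and 16.5 CPM in WT CDAHFD, 29.8 and 14.8 CPM in KO chow, and 16.7, 17.4 and 6.59 CPM in KO CDAHFD. Depdc1a and Psrc1 had no more than 0.233 CPM in a WT chow library and at least 1.26 and 3.33 CPM in any other. Of 14 other condensin and cohesin genes, 7 were called higher and 1 lower in KO chow (median 0.25), led by Espl1, the separase that cuts cohesin, Cdca5, which protects it, and Ncaph of condensin I, at 3.56, 3.46 and 2.71. The WT CDAHFD comparison called 6 of 14 higher and 4 lower (median 0.08), with Ncapg2 of condensin II at 2.71. Of 23 other entry and exit genes, 10 were called higher and 0 lower in KO chow (median 0.51) and 8 higher and 2 lower in WT CDAHFD (median 0.13). Cdkn3, a phosphatase of cell cycle kinases, had at most 0.0667 CPM in a WT chow library and 4.38 to 9.41 CPM in the others. Cdc25b and Pkmyt1, an activator and an inhibitor of Cdk1, were at 2.56 and 2.78 in KO chow.

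The lists of G1, S phase and transcriptional control had smaller medians than the members. Of 8 G1 cyclins and their kinases, 5 were called higher and 1 lower in KO chow, and 3 higher and 1 lower in WT CDAHFD. With KO chow given first and WT CDAHFD second, the log2 fold changes were 3.85 and 3.23 for Ccnd1, 2.78 and 1.85 for Ccne1, 0.98 and 0.57 for Ccne2, and 0.65 and 0.43 for Ccnd2. Not all of these 4 were called in WT CDAHFD, since Cdk6 was among the 3 genes called higher there. Ccnd3 was called lower in both (-0.41 and -0.46). Cdk4 was called in KO chow (0.50), Cdk6 in WT CDAHFD (0.77), and Cdk2, at -0.41 and -0.36, in neither. Of 7 Cdk inhibitors, which block cell cycle kinases, 5 were called higher in KO chow and 4 in WT CDAHFD. Cdkn1a, p21, stood at 25.5, 7.74, 1.83 and 1.93 CPM in WT chow, 80.7, 86.9 and 62.8 CPM in WT CDAHFD, 115 and 63.1 CPM in KO chow, and 59.5, 54.9 and 25 CPM in KO CDAHFD. Its WT chow libraries spread widely, and its log2 fold change was 3.27 in KO chow and 3.05 in WT CDAHFD. Cdkn2c, p18, was at 1.99 and 1.91, Cdkn2b at 2.41 and 1.93, and Cdkn1c at 0.97 and 1.07. Cdkn2d was called in KO chow (0.88), while Cdkn1b (0.31) and Cdkn2a (1.62) were not. Of 17 E2F, pocket protein and MuvB genes, 4 were called higher and 3 lower in each comparison, where 22.0% and 26.1% of all genes tested were called higher. Rbl1, the pocket protein p107, was at 2.06, E2f1 at 1.27 and E2f8 at -1.47 in KO chow, and E2f7 at 1.06 and Rbbp4 at -0.93 in WT CDAHFD. Of 22 MCM and replication genes, 16 were called higher and 1 lower in KO chow (median 1.11), and 15 higher and 2 lower in WT CDAHFD (median 0.86). Cdc6, which loads the MCM helicase, was at 3.51, Gins2 at 2.92 and Mcm5 at 2.88 in KO chow.

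**Figure D5:**
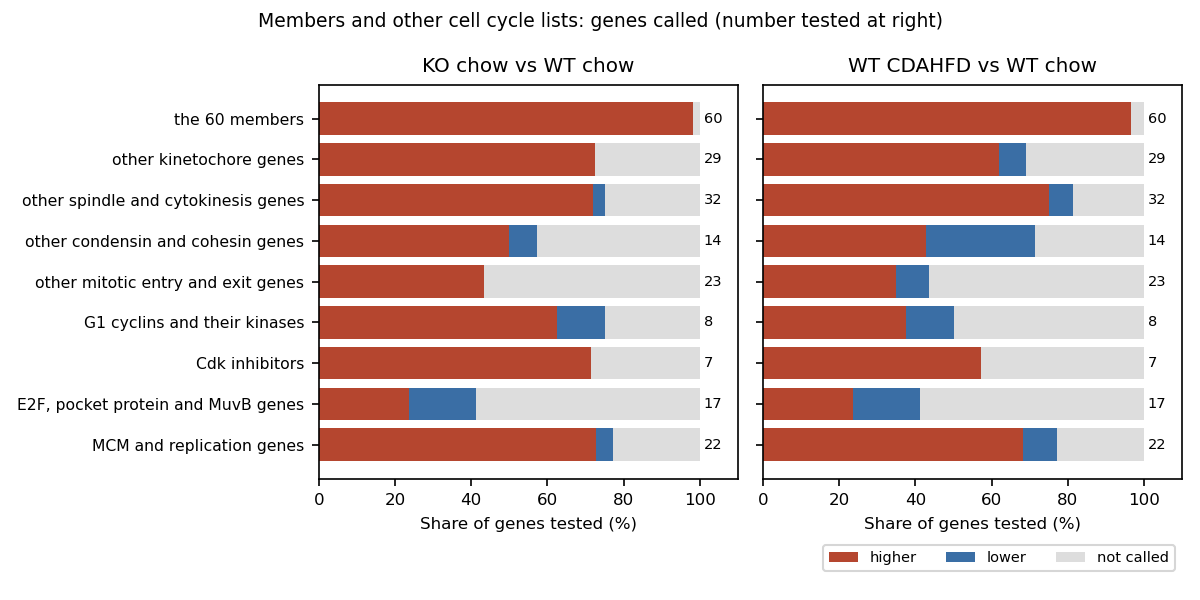
Share of genes tested that were called higher (red), lower (blue) or not called (grey) by edgeR in the KO chow (left) and WT CDAHFD (right) comparison with WT chow, for the 60 members and 8 other cell cycle lists, with the number of genes tested at the right of each bar. The members have the highest share called higher in both panels, and the E2F, pocket protein and MuvB genes have the lowest.

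Markers of some other liver cell types were higher where the members were, and those of others were not. Over all genes tested, 22.0% were called higher and 17% lower in KO chow, and 26.1% higher and 25.0% lower in WT CDAHFD. Over 17 macrophage and monocyte markers the summed level ranged over 402 to 730.0 CPM in WT chow and 1615 to 1643 CPM in KO chow, and with CDAHFD over 2388 to 3201 CPM in WT and 2468 to 2659.5 CPM in KO libraries, and 15 of the 17 were called higher and 0 lower in KO chow, and 13 higher and 1 lower in WT CDAHFD. Over 10 stellate cell and fibroblast markers it ranged over 246 to 369 CPM in WT chow and 1400.2 to 1597 CPM in KO chow, and with CDAHFD over 1689 to 1802 CPM in WT and 1833 to 2517 CPM in KO libraries, with 7 of 10 called higher and 0 lower in each comparison. Over 7 cholangiocyte markers it ranged over 47.5 to 80.6 CPM in WT chow and 169 to 294 CPM in KO chow, and with CDAHFD over 366 to 588 CPM in WT and 579.9 to 898 CPM in KO libraries, with 6 and 7 called higher and 0 lower. Over 11 T and NK cell markers it ranged over 6.696 to 10.2 CPM in WT chow and 10.5 to 15.6 CPM in KO chow, and with CDAHFD over 11.7 to 12.8 CPM in WT and 11.2 to 13.6 CPM in KO libraries, with 8 and 7 called higher and 1 lower in each comparison. The neutrophil markers, 4 of 6 of them tested, summed to 8.50 CPM in WT chow replicate 1 and to 0.917 to 1.33 CPM in the other WT chow libraries, where Ly6g and Mpo were at 0, and to no more than 21.9 CPM in any library, with 2 of 4 called higher in KO chow and 3 of 4 in WT CDAHFD. B and plasma cell markers summed to at most 18.3 CPM, with 1 of 5 called higher in KO chow and 0 in WT CDAHFD. Of 8 endothelial markers, 1 was called higher and 0 lower in KO chow (median -0.07), and 0 higher and 4 lower in WT CDAHFD (median -0.64). Of 5 erythroid and haemoglobin genes tested, 1 was called higher and 1 lower in KO chow, and 0 higher and 5 lower in WT CDAHFD (median -1.07). Hepatocyte markers were called lower in 5 of 10 in KO chow and in 10 of 10 in WT CDAHFD. The part of these cells in the level of the members was not tested, since RNA of all cells was pooled in each library.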

How the data were processed

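Per the labels, poly-A RNA of snap-frozen mouse liver was sequenced without strand information, and the authors deposited 1 table of raw counts per gene for 12 libraries. Their processing notes name FastQC 0.11.5, STAR 2.7.3a, the GRCm38 genome and DESeq2, and the counting program and annotation are not given in the sources used here. Gene symbols were taken from GENCODE M21 for 52081 of 55357 identifiers (94.1%), which held 99.7% of counts. Groups followed the labels, which give unequal group sizes where the study's methods describe equal ones, and 1 KO chow library has another number in its second label field. Each library was taken as 1 animal, and p-values measure the spread between libraries.

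Genes were filtered with filterByExpr, scaled by TMM and fitted in R 4.3.3 with edgeR 4.0.16 (quasi-likelihood, 4 group means over 12 libraries), and p-values of the 17358 genes tested were adjusted by Benjamini-Hochberg, with calls under 0.05. The fit was first tested on simulated data. Alternatives were DESeq2 1.42.0, other size factors, no filter, a replicate block, the clock score as covariate, the compared groups alone, and leaving out libraries. Shares of all genes called by DESeq2 or with no filter are over the 30104 genes with a count. The other shares are over the genes that passed the filter in that setting. Promoter windows came from RefSeq. Figures were drawn with matplotlib 3.10.9.

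Values in every library were printed for 16 members chosen for their roles, the 3 members with the largest and the 3 with the smallest log2 fold change in each comparison with WT chow, members not called there, up to 5 called members of each other comparison, and the 3 members that differed most between the KO chow libraries. Of other lists, up to 3 called genes with the largest change, or all genes of lists of at most 8, were named. Depdc1a, Psrc1 and Cdkn3 are given by level, since WT chow libraries held few of their counts. The members and lists were chosen with earlier results of these data known. Counting intervals cover counting error only.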

Additional observations from a re-analysis of the deposited data

Results flagged for a closer look

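Among members in the 4 WT chow libraries, 1 library stood far from the other 3 in 3 genes. Cenph was at 0.311 CPM (8 counts) in replicate 1 and at 0.157, 0.167 and 0.183 CPM (5, 5 and 4 counts) in the others. Cenpp was at 0.700 CPM (21 counts) in replicate 3 and at 0.229, 0.272 and 0.283 CPM (5, 7 and 9 counts) in the others. Ncapg was at 0.505 CPM in replicate 1 and at 0.189, 0.200 and 0.229 CPM in the others. WT chow held 30 Ncapg counts in all, so these 3 gaps rest on few counts. Chance gives such a gap in about 1 in 20 groups, and 60 members were looked at, so a few such gaps can arise by chance. The effect of genotype differed between the diets in 56 of the 60 members by the interaction test of edgeR, lower under CDAHFD. That test called 14.5% of all genes tested lower.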

How the results depend on the processing

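Over the 60 members in both comparisons with WT chow and in the interaction, with Plk4 in KO CDAHFD against KO chow and Spc24 in KO chow against WT CDAHFD, direction and call held in 3524 cases of 1 gene under 1 alternative, the call was lost in 39 and gained in 17, and no direction reversed. Other members in the last 2 comparisons are given by counts and medians only. Of 357 counts and medians under alternatives, 325 kept the reported value within the tolerance used, a factor of 1.5 for counts, and 32 moved. Leaving out 1 library at a time left 58 to 60 members higher in KO chow with medians of 3.59 to 4.56, 55 to 58 higher in WT CDAHFD, and 54 to 58 lower in the interaction with medians of -4.78 to -3.67. Of all genes tested, 15.4% to 23.4% and 23.1% to 27.1% were then called higher, and 10.6% to 16.2% lower. In KO CDAHFD against KO chow leaving out 1 library gave 0 to 1 members lower with medians of -1.09 to -0.05, where 0.422% to 3.17% of all genes were. In KO chow against WT CDAHFD it gave 0 to 5 higher with medians of -0.16 to 0.85, where 0.642% to 3.82% of all genes were. Without KO chow replicate 1 and KO CDAHFD replicate 3 together, chosen after seeing the data, the medians were 3.59 in KO chow, 0.20 in KO CDAHFD against KO chow, -0.16 in KO chow against WT CDAHFD and -3.44 in the interaction, with 0 members lower and 0 higher in the middle pair. Of all genes tested, 0.404% were called lower in the first of that pair and 0.803% higher in the second. In KO CDAHFD against KO chow, 0 members were lower with RLE size factors, library size only, the replicate block or the compared groups alone. These settings called 0.795% to 1.99% of all genes tested lower. 2 members were lower with the clock score or DESeq2 (4.64% and 2.24% of all genes), and 10 with no filter on low counts (1.53%). In KO chow against WT CDAHFD, 4 were higher with no filter (1.88% of all genes) and 8 with the clock score (7.26%). Library size only moved the median of all genes of the WT CDAHFD comparison by 0.56, of the KO chow comparison by 0.40, of KO CDAHFD against KO chow by 0.21, of KO chow against WT CDAHFD by -0.16 and of the interaction by -0.35, and the members' median of the first to 4.31. The causes were not tested.

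The replicate numbers did not pair the libraries (correlation of deviations between same-numbered libraries -0.242 to 0.266). With the replicate block, 59 members were higher in KO chow, 57 were higher under CDAHFD in WT, 1 was higher in KO chow against WT CDAHFD, and 56 were lower in the interaction. Of 17358 genes tested, the block called 3238 higher in KO chow and 4145 higher under CDAHFD in WT. It called 270 higher in KO chow against WT CDAHFD and 2082 lower in the interaction. WT chow held few counts of most members, with 2 libraries in KO chow, so fold changes there carry the larger errors.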
